A study of Homo sapiens with 48 samples.

Results

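The change in drug response between 1 h and 2 h was measured in BEAS-2B, an immortalised human bronchial epithelial cell line, on 24 of the 48 arrays of the series. These were the arrays at 1 h and 2 h, in 6 groups of 4: vehicle, Ind/GSK (indacaterol and GSK 256066 together, each at 10 nM) and GS-5759 (10 nM), each for 1 h or 2 h. Indacaterol activates the β2-adrenoceptor for many hours, GSK 256066 inhibits phosphodiesterase 4 (PDE4), and GS-5759 is 1 molecule with both activities. All groups, controls included, were cells of 1 line grown in keratinocyte serum-free medium, which held no added growth factors for the 24 h before treatment. Each value below is a log2 difference of log2(signal + 16): the response is the mean of both treatments minus vehicle at 1 time, and the change is the response at 2 h minus that at 1 h, ± SE. A gene was called when limma's Benjamini-Hochberg adjusted p over 14409 tested genes was under 0.05. The labels do not state separate cultures for the replicates, so p-values measure only the spread between these arrays.

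β2-adrenoceptors couple through Gs to adenylyl cyclase, which makes cAMP, and PDE4 enzymes break cAMP down, so that an agonist and a PDE4 inhibitor together raise cAMP. Protein kinase A then phosphorylates the factor CREB, which acts through the cAMP response element, and releases CREB coactivators from inhibition by salt-inducible kinases. Genes that need no new protein are known to respond first and to be followed by genes that respond later, and in airway epithelium this pathway is known to add to glucocorticoid-induced genes with anti-inflammatory roles.

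The array medians lay between 6.999 and 7.173 on the log2 scale. The arrays numbered 3 stood apart in basal keratin genes and in some other epithelial genes. KRT14 gave 187000 to 324000 in the 6 of them at 1 h and 2 h and 13.3 to 31.8 in the other 18, and KRT5 gave 29500 to 32500 against 119 to 277. S100A2, another basal gene, gave 8880 to 11700 against 303 to 459, and KRT19, a general epithelial gene, 3250 to 3960 against 0.00407 to 86.3. Not all basal genes did so: over the 24 arrays PDPN ran only from 174 to 265 and ITGA6 from 1740 to 2750. KRT8, KRT18 and VIM, known to be expressed in this line, were high throughout (KRT18 7030 to 9220). Of 10 measured general epithelial genes 8 passed the filter level of 75.42, but EPCAM gave only 51.8 to 256 and ESRP1 40.8 to 85.3. Of 12 fibroblast and mesenchymal genes 11 passed, with COL1A1 at 6460 to 11000 and FAP at 14.6 to 35. The summed levels of these 2 lists were 14300 to 31600 and 22500 to 28200. The defining genes of leukocytes (PTPRC, 19.1 to 37.3), endothelium (CDH5, 4.07 to 20.8) and ciliated cells (FOXJ1, 6.48 to 30.7) were below the filter level on every array. Other markers on those lists were not: 5 of 10 measured leukocyte genes passed the filter, with CD4 at 367 to 537 and LYZ at 238 to 533. So did 5 of 10 endothelial genes, with PECAM1 at 424 to 629, and 4 of 11 ciliated and club cell genes, with DNAH5 at 85.9 to 194. The summed level over the 24 arrays was 1190 to 1530 for the leukocyte, 1030 to 1310 for the endothelial and 3730 to 6520 for the ciliated and club cell list, and none of their tested members had a called change. Of the 8 tested members of the basal list, none had a called change (median -0.007). Its summed level ran from 4880 to 382000 over the 24 arrays. In bulk RNA, fewer cells of a type and less RNA per cell cannot be told apart. Each replicate number occurred once in each group, so number 3 weighed equally on all of them. Arrays with the same number deviated together, so results of the fit with replicate number as a block are given as well. Each SE and interval is from the fit without the block unless stated, also where a block adjusted p stands beside it.

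Between 1 h and 2 h the response rose in 19 genes and fell in none that passed the test. The 19 made up 0.132% of the tested genes, and the called falls 0%. At an unadjusted p under 0.05, limma gave 540 positive and 591 negative changes. CRISPLD2, LINC00473, SLC7A2, SIK2 and ZNF462 led, each with a change of over 2-fold. With the replicate block, 279 genes rose (1.94%) and 64 fell (0.444%), among them all 19. That split depended on scaling: it was 196 and 139 with quantile normalization and 171 and 186 with 75th percentile centring. Scaling mattered without the block too. There 24 genes were called with quantile normalization and 27 with 75th percentile centring, falls among them, and each held 17 of the 19. Without all arrays numbered 3, 50 genes rose and 8 fell without the block, and 18 of the 19 were called, AFAP1 being lost. Without vehicle replicate 4 at 2 h, 30 rose and 26 fell, and 12 fell without vehicle replicate 3 at 2 h or vehicle replicate 4 at 1 h. From 1 to 3 fell without GS-5759 replicate 2 at 1 h or 1 at 2 h, Ind/GSK replicate 1, 3 or 4 at 1 h, or Ind/GSK replicate 1 or 4 at 2 h.

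**Figure D1:**
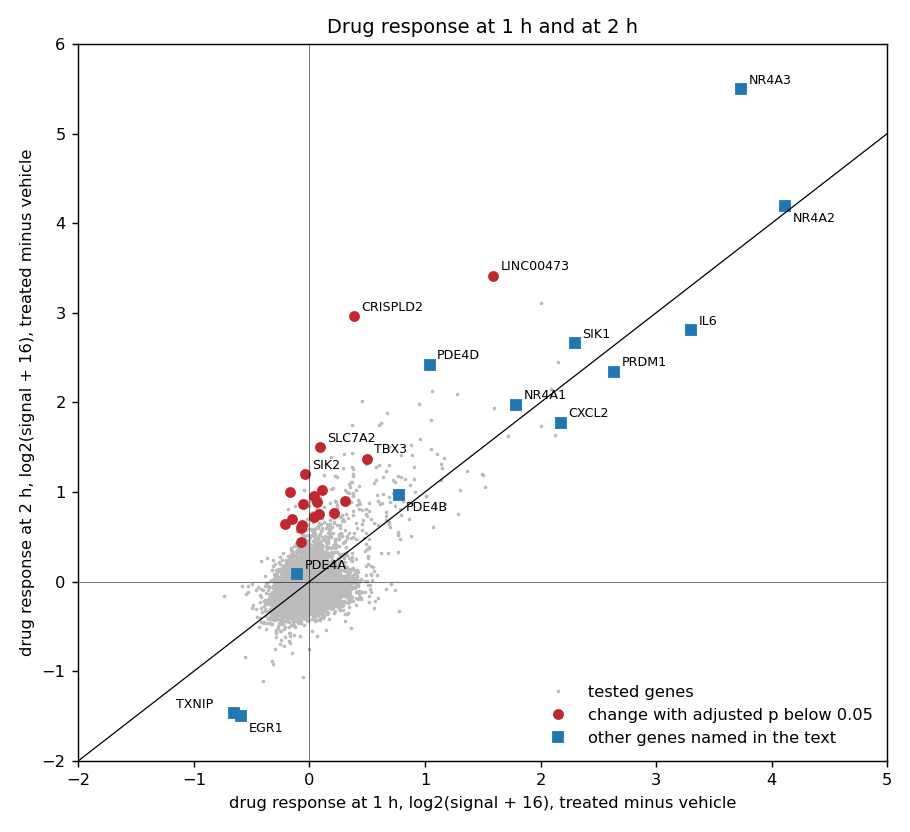
Drug response at 1 h (x axis) against that at 2 h (y axis), both as log2(signal + 16), treated minus vehicle, for 14409 tested genes. The 19 genes with a called change (red) lie above the diagonal of equal response, 17 of them with no called rise at 1 h, and NR4A2, IL6 and PRDM1 (blue) lie far from 0 at both times and close to the diagonal.

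Of the 19 genes, 2 had a called rise at 1 h (0.389% of tested genes), LINC00473 and TBX3, and 4 with the block (1.73%), while all had one at 2 h (1.96%). Their responses had a median of 0.04 at 1 h (from -0.21 to 1.59) and 0.89 at 2 h (0.45 to 3.41). In each of the 19, all 8 treated arrays at 2 h lay above all 4 vehicle arrays (1.73% of tested genes), and the change was positive under each of the 4 replicate numbers (13.2%). At 1 h such separation was seen for LINC00473 and SLC22A5 (0.645%). These values come from the arrays that gave the calls and describe them.

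CRISPLD2 encodes a secreted protein that binds lipopolysaccharide and is known to be induced by glucocorticoids. Its signal in replicates 1 to 4 at 1 h was 377, 203, 153 and 261 with vehicle, 502, 249, 172 and 295 with Ind/GSK and 644, 332, 240 and 270 with GS-5759. At 2 h the values were 349, 318, 248 and 195 with vehicle, 3110, 2050, 2130 and 1740 with Ind/GSK and 3340, 1970, 2030 and 1840 with GS-5759. The groups overlapped at 1 h, though each treated array lay above the vehicle array of its own number. At 2 h the lowest treated array lay far above the highest vehicle array. The response went from 0.38 ± 0.34 (limma adjusted p = 0.736, block 0.0874) to 2.96 ± 0.34, a change of 2.58 ± 0.48 (5.97-fold, limma adjusted p = 0.00441). A second, dimmer probe set of the gene gave -0.09, with responses of -0.07 and -0.16.

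LINC00473 is a long non-coding RNA known as a CREB target. At 1 h its signal was 216, 191, 95.7 and 184 with vehicle, 671, 549, 322 and 520 with Ind/GSK and 812, 729, 318 and 518 with GS-5759. By 2 h it was 216, 197, 88.8 and 160 with vehicle, 2210, 1760, 1290 and 1930 with Ind/GSK and 2290, 2210, 1340 and 1970 with GS-5759. Treated and vehicle arrays were apart at both times, and the array numbered 3 was lowest in each group. Its response had already risen at 1 h (1.59 ± 0.26, adjusted p = 0.000267) and reached 3.41 ± 0.26 at 2 h, a change of 1.83 ± 0.37 (3.54-fold, adjusted p = 0.0135). The call was lost in the fit of the 24 arrays alone, and without vehicle replicate 1 or 2 at 1 h or vehicle replicate 3 at 2 h (highest adjusted p = 0.0848).

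SLC7A2 encodes a transporter of arginine and other cationic amino acids. At 1 h its signal was 1050, 602, 698 and 863 with vehicle, 888, 651, 702 and 940 with Ind/GSK and 1110, 749, 746 and 1020 with GS-5759. At 2 h the signal was 758, 661, 597 and 789 with vehicle, 2060, 1800, 2070 and 1880 with Ind/GSK and 2340, 1820, 1970 and 2100 with GS-5759. All 3 groups overlapped at 1 h, and every treated array reached 1800 or more at 2 h. The change was 1.41 ± 0.22 (2.66-fold, adjusted p = 0.000344), from a response of 0.09 to 1.50. Its other probe sets lay below the filter and gave 0.82 and -0.24.

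SIK2 encodes a salt-inducible kinase, which holds CREB coactivators in the cytoplasm. At 1 h its signal was 608, 535, 609 and 493 with vehicle, 506, 452, 617 and 527 with Ind/GSK and 579, 525, 601 and 559 with GS-5759. By 2 h it was 493, 486, 550 and 528 with vehicle, 1430, 956, 1790 and 884 with Ind/GSK and 1320, 917, 1810 and 894 with GS-5759. The treated arrays numbered 1 and 3 were higher at 2 h than those numbered 2 and 4, in both treatments. The response went from -0.04 ± 0.18 to 1.20 ± 0.18, a change of 1.24 ± 0.25 (2.36-fold, adjusted p = 0.0121), and without vehicle replicate 1 at 1 h the adjusted p was 0.0559. Other probe sets gave 1.16 and 0.33, and 0.05 below the filter. SIK1, the family member known as an early cAMP-induced gene, gave 2.30 ± 0.33 at 1 h and 2.66 ± 0.33 at 2 h, a change of 0.37 ± 0.47 that was not called.

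ZNF462 encodes a zinc finger protein of the nucleus. At 1 h its signal was 604, 495, 662 and 479 with vehicle, 453, 349, 633 and 475 with Ind/GSK and 495, 444, 664 and 486 with GS-5759. At 2 h the arrays gave 512, 470, 615 and 435 with vehicle, 1060, 939, 1340 and 886 with Ind/GSK and 1100, 901, 1140 and 913 with GS-5759. The groups overlapped at 1 h and not at 2 h. The change was 1.18 ± 0.23 (2.26-fold, adjusted p = 0.00776), from -0.17 to 1.00, and a second probe set gave 0.95.

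IL15 encodes a cytokine that supports natural killer cells and memory T cells. At 1 h its signal was 706, 659, 487 and 669 with vehicle, 630, 516, 496 and 638 with Ind/GSK and 696, 689, 506 and 662 with GS-5759. By 2 h it was 455, 476, 408 and 527 with vehicle, 982, 732, 804 and 852 with Ind/GSK and 1030, 815, 802 and 882 with GS-5759. Vehicle arrays were lower at 2 h than at 1 h while treated arrays were higher, and the groups overlapped only at 1 h. The vehicle difference of -0.41 ± 0.15 had an adjusted p of 0.13 (0.0164 with the block). The response changed by 0.92 ± 0.19 (1.89-fold, adjusted p = 0.0121), with 0.81 for a second probe set, and without vehicle replicate 1 at 1 h the adjusted p was 0.0755.

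**Figure D2:**
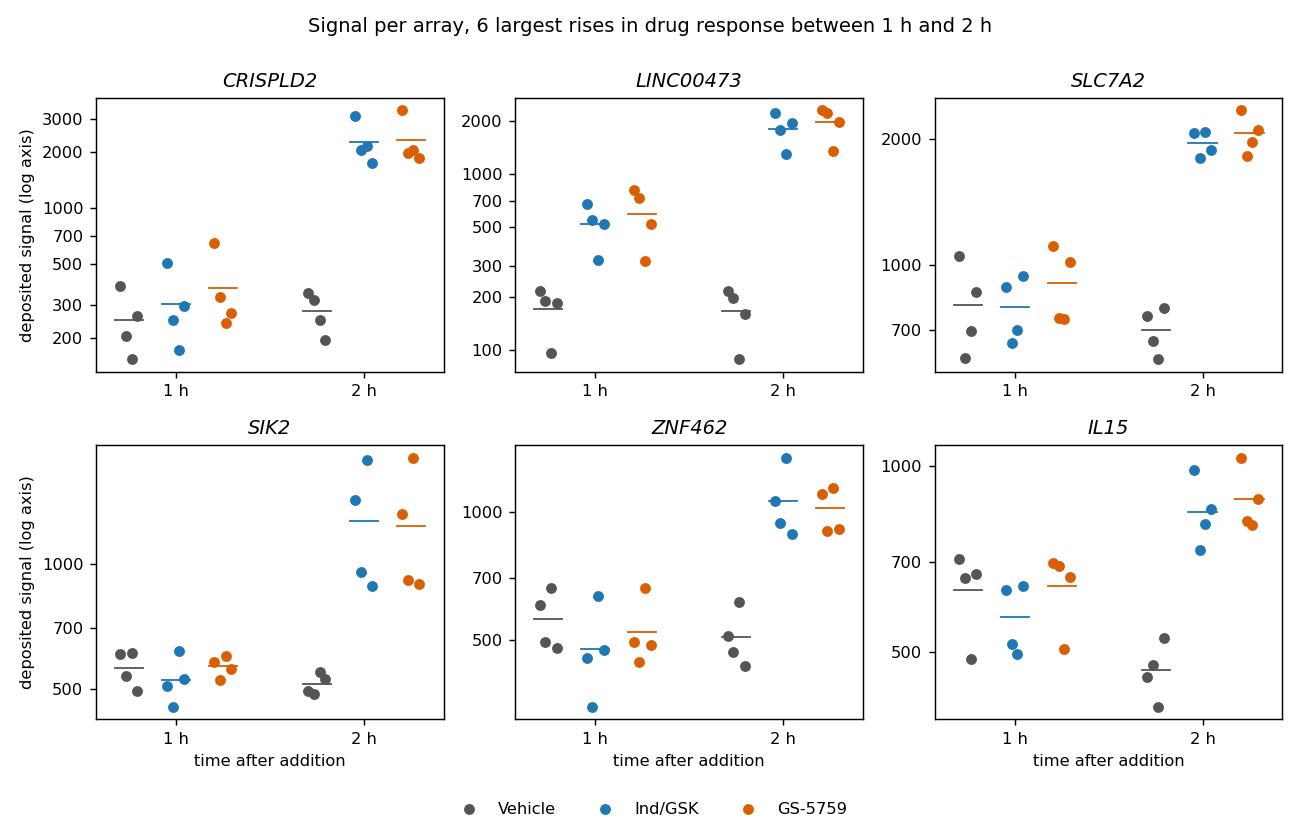
Deposited signal on each array (points, log axis) and group mean (line) at 1 h and 2 h for the 6 genes with the largest called changes, with vehicle in grey, Ind/GSK in blue and GS-5759 in orange, n = 4 per group. The treated points overlap vehicle at 1 h except for LINC00473 and stand above vehicle at 2 h, as for SLC7A2 at 1800 to 2340 against 597 to 789.

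The other 13 genes changed by 0.52 to 0.92. Their grouping by function was made after the values were seen. Adaptor and cytoskeletal genes were BCAR3, an adaptor that binds the focal adhesion protein p130Cas, AFAP1, which binds actin filaments, and FIGN, a microtubule-severing ATPase. BCAR3 had a mean signal of 1410 ± 96 (SD, n = 4) with vehicle at 2 h, 2740 ± 456 with Ind/GSK and 2780 ± 220 with GS-5759, against means of 1280 to 1360 in the 3 groups at 1 h. Its change of 0.92 ± 0.12 had the lowest adjusted p of all (0.000108). FIGN changed by 0.86 ± 0.13 and AFAP1 by 0.83 ± 0.17 (adjusted p = 0.0121, 0.0891 without the arrays numbered 3, and lost also without vehicle replicate 1 at 1 h and in the 24-array fit).

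The matrix genes were CEMIP2, a cell surface protein that cleaves hyaluronan, and CHSY1, a chondroitin sulfate synthase. CEMIP2 had means of 2340 ± 90.8 with Ind/GSK and 2290 ± 151 with GS-5759 at 2 h against 1130 ± 103 with vehicle, and changed by 0.92 ± 0.16 (adjusted p = 0.00244). CHSY1 changed by 0.56 ± 0.10 (adjusted p = 0.00244). Transport and metabolic genes were SLC22A5, the carnitine transporter (0.60 ± 0.12), NPC1, which exports cholesterol from late endosomes (0.68 ± 0.15), and RIMKLB, which makes the neuropeptide N-acetylaspartylglutamate (0.85 ± 0.14). The calls of NPC1 (adjusted p = 0.0313) and SLC22A5 (0.0121) were lost under either scaling and without some single arrays. SLC22A5 was lost without vehicle replicate 1 or 2 at 1 h or 3 at 2 h. NPC1 was lost without these, vehicle replicate 4 at 1 h or 1 or 2 at 2 h, Ind/GSK replicate 2 at 1 h, or GS-5759 replicate 2 or 3 at 1 h or 1 at 2 h (highest adjusted p = 0.105).

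Regulators of transcription and signalling were TBX3, a T-box repressor (0.87 ± 0.16), HIVEP2, a zinc finger factor that binds enhancers (0.70 ± 0.12), SMAD2, which carries TGF-beta signals (0.52 ± 0.09), and FRAT1, an inhibitor of GSK3 in Wnt signalling (0.66 ± 0.11). TBX3 had risen at 1 h already (0.50 ± 0.11, adjusted p = 0.0147) and reached 1.37 ± 0.11 at 2 h. With the mean of all its probe sets, most of them dim, in place of the brightest it was not called (0.33). FRAT1 was the gene among the 19 whose vehicle arrays had a called fall without the block (IL15 had one with it), and they went from 307 ± 25.8 to 208 ± 20.8 (-0.53 ± 0.09, adjusted p = 0.00239; vehicle differed between the times in 2.57% of tested genes), while treated means went from 319 and 336 to 364 and 360. SIRPA, the receptor for CD47 on myeloid and other cells, changed by 0.67 ± 0.10 (adjusted p = 0.000161). SMAD2 gave 0.30 to 0.49 in its 5 other probe sets, all positive.

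The promoters were searched for the letters of the cAMP response element. They came from RefSeq on GRCh38.p14, from 250 bases before to 50 after the annotated start, and 14 of the 19 genes had an entry. Those of IL15, SIRPA, SLC7A2, TBX3 and ZNF462 had none. The full element TGACGTCA was in 1 of the 14 (7.1%), against 343 of 11548 tested genes (3.0%) and 540 of all 27305 promoters (2.0%). Its short form, TGACG or CGTCA, which the full element contains, was in 4 of the 14 (28.6%), 32.5% of tested genes and 25.0% of all promoters. Among the 225 promoters of genes that rose with the block, 12 (5.3%) held the full element and 77 (34.2%) the short form. TATAAA, read on both strands, was in 0 of the 14 (0.0%) and in 6.6% of tested genes. The letters printed are the 200 bases before the start, 5′ to 3′ on the gene's strand, with the full or short element in capitals. The first 4 are the called genes that hold either form. PDE4A, which encodes a target of both treatments and whose change was not called (0.19 ± 0.09), holds the full element too, and its letters run to the end of that element, 5 bases past the start.
LINC00473, chr6:165988040-165988239, minus strand: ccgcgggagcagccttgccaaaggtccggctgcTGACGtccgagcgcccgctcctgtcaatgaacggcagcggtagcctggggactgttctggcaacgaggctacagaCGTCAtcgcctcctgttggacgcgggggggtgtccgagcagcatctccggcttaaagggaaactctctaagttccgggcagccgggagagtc
SIK2, chr11:111602249-111602448, plus strand: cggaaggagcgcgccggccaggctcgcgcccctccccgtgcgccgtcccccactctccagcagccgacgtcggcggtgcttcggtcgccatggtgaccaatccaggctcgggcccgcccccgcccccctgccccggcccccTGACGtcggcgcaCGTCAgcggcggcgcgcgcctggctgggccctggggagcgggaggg
CEMIP2, chr9:71768514-71768713, minus strand: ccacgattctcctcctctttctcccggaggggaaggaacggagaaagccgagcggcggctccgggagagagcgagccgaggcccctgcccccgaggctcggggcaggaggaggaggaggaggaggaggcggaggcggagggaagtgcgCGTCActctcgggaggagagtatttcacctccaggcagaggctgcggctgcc
FRAT1, chr10:97319071-97319270, plus strand: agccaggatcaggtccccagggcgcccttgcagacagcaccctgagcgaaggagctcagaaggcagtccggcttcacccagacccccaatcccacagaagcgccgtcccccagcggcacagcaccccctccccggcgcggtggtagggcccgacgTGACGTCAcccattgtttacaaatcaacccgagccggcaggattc
PDE4A, chr19:10416573-10416777, plus strand: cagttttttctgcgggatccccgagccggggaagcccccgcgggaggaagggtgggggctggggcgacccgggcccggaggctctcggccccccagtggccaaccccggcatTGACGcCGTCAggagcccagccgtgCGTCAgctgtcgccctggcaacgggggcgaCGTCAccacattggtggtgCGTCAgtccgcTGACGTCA

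In FRAT1 the full element starts 45 bases before the start site, and in PDE4A it starts 3 bases before it, with 7 short forms in all from 88 bases before the start. In SIK2 the short forms face each other 59 and 46 bases before the start, in LINC00473 they lie 167 and 92 bases before it, and CEMIP2 has 1 at 52 bases. CRISPLD2, the gene with the largest change, has neither form in its window. These are matches of letters, and binding was not measured.

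The 2 treatments were compared at matched dose and times. Taken alone, the Ind/GSK response rose in 15 genes (0.104%) and the GS-5759 response in 8 (0.0555%), all 8 among the 19 and in both sets. With the block it changed in 267 (1.85%) and 115 (0.798%), and all 19 rose with either treatment. The counts without the block moved with single arrays: that of GS-5759 fell to between 2 and 5 without any 1 of 20 arrays, the 4 exceptions being Ind/GSK replicates 2 and 3 at 1 h, Ind/GSK replicate 3 at 2 h and vehicle replicate 3 at 1 h. That of Ind/GSK was 7 to 9 without Ind/GSK replicate 2 at 1 h, Ind/GSK replicate 1 at 2 h or vehicle replicate 1 at 1 h. It was 24 to 29 without Ind/GSK replicate 4 or vehicle replicate 4, at either time. The difference between the 2 changes was called in 0 genes (0%), with or without the block, where limma gave 54 and 160 genes at an unadjusted p under 0.05. Both counts are below what that threshold would give by chance alone. Of the 160 with the block, 39 were positive and 121 negative.

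Both treatments share the vehicle arrays, so their changes are set side by side. They were 2.70 with Ind/GSK and 2.45 with GS-5759 for CRISPLD2, 1.85 and 1.80 for LINC00473, and 1.46 and 1.36 for SLC7A2. SIK2 gave 1.31 and 1.16, BCAR3 0.95 and 0.89, and SIRPA 0.64 and 0.70. Over the 19 genes GS-5759 minus Ind/GSK lay between -0.25 and 0.06, negative in 18, with 95% intervals that reached from -1.37 to 0.87. The median of this difference was -0.08 in the 19 and -0.04 over all tested genes. Without the block the interval was -0.92 to 0.82 for LINC00473 and -0.36 to 0.22 for BCAR3. Differences within these ranges between the bifunctional molecule and the combination are not excluded by that fit. Block intervals of this difference are not given here.

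**Figure D3:**
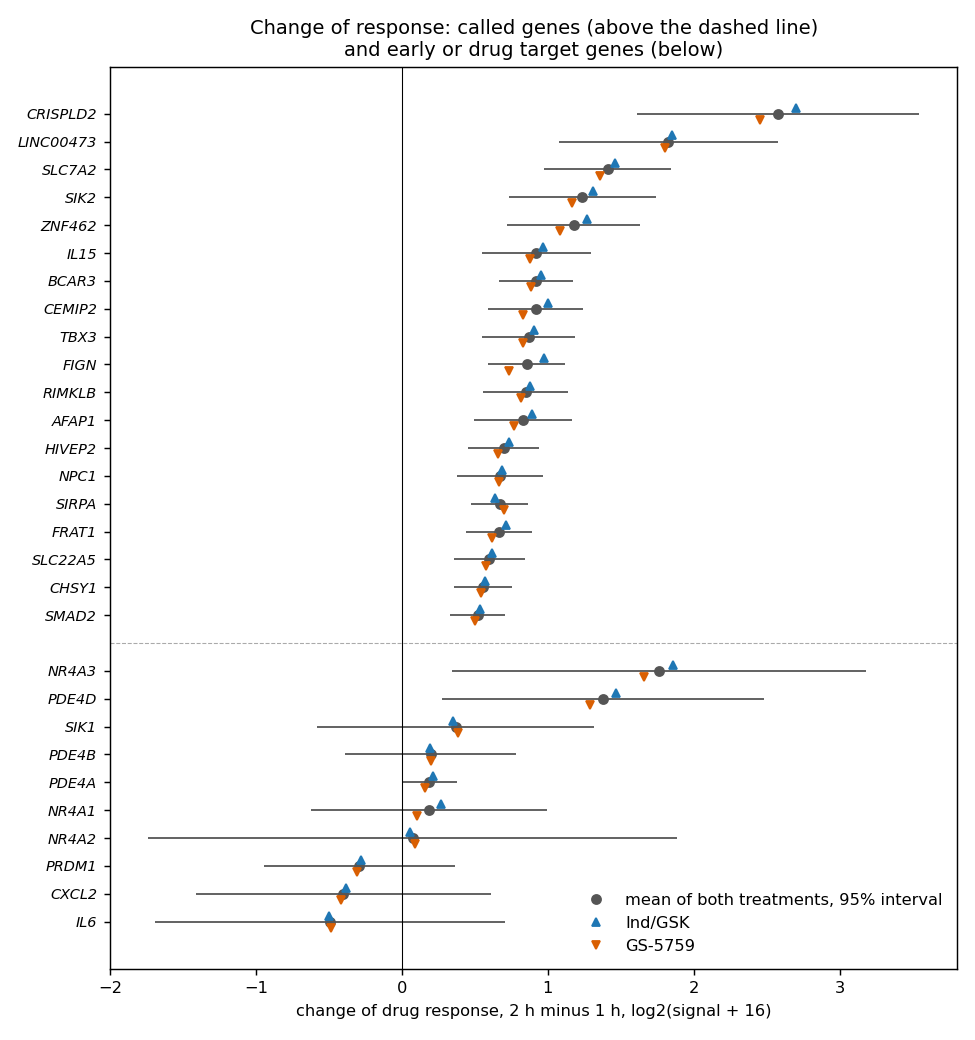
Change of drug response from 1 h to 2 h in log2(signal + 16), with the mean of both treatments and its 95% interval (grey) and each treatment alone (triangles, as in the legend). The 19 called genes stand above the dashed line, from CRISPLD2 at 2.58 to SMAD2 at 0.52, and below it are early genes and PDE4 genes, whose changes were not called without the replicate block.

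The genes that led the response at 1 h had no called change without the block. With it, NR4A3 alone among the 6 largest was called. NR4A2, an orphan nuclear receptor and CREB target, had a signal at 1 h of 126, 103, 187 and 93.9 with vehicle, 3750, 939, 10200 and 822 with Ind/GSK and 4980, 1340, 7140 and 758 with GS-5759. At 2 h it was 85.7, 71.9, 113 and 81.9 with vehicle, 3630, 811, 4700 and 747 with Ind/GSK and 3250, 996, 5400 and 797 with GS-5759. Treated arrays were far above vehicle at both times, and those numbered 1 and 3 were above those numbered 2 and 4. The change was 0.07 ± 0.90 with a 95% interval of -1.74 to 1.89 (-0.92 to 1.07 with the block). Its sign turned under 75th percentile centring (-0.01). IL6, a cytokine, gave 3.30 ± 0.42 and 2.81 ± 0.42 (change -0.49, interval -1.70 to 0.71). PRDM1, a transcriptional repressor, gave 2.64 and 2.34 (interval -0.95 to 0.36, and -0.62 to 0.03 with the block). CXCL2, a neutrophil chemokine, gave 2.17 and 1.77 (interval -1.41 to 0.61). NR4A1 gave 1.79 and 1.97 (interval -0.63 to 1.00).

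NR4A3 was the family member with the largest change, 1.76 ± 0.70 from 3.74 to 5.50, with an adjusted p of 0.447 and 0.0164 with the block (lost again in the block fit of 24 arrays). Its signal with GS-5759 went from 1910, 563, 1560 and 307 to 3210, 1270, 3110 and 1080, while vehicle was at 63.9, 65.3, 24 and 31.1 at 1 h and 41.2, 35.4, 14.8 and 18.1 at 2 h. All vehicle arrays lay under the filter level of 75.42, so the gene was tested only because the treated arrays were high, and the pseudocount lowers its fold.

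PDE4 genes encode the target of both treatments. PDE4D, known to be induced by cAMP, had a mean of 396 ± 129 with vehicle, 836 ± 467 with Ind/GSK and 931 ± 419 with GS-5759 at 1 h. At 2 h these were 410 ± 128, 2400 ± 1250 and 2350 ± 990. Treated and vehicle arrays overlapped at 1 h and not at 2 h. Its response at 1 h, 1.04 ± 0.39, was called with the block alone (adjusted p = 0.23, block 2.35e-05). Its change was 1.38 ± 0.55 with an adjusted p of 0.438, and 0.00014 with the block. Of its 5 other probe sets, 3 gave 1.07 to 1.35 and the others -0.07 and -0.18. PDE4B gave 0.77 ± 0.21 at 1 h (adjusted p = 0.0579, block 0.00216) and 0.97 ± 0.21 at 2 h, a change of 0.20 (interval -0.39 to 0.79). PDE4A gave -0.11 and 0.08.

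The lists of the pathway are described by counts and medians. Over all tested genes the median was 0.026, 58.1% of changes were positive (33.4% with 75th percentile centring and 42.8% with quantile normalization), and 0.132% rose, or 1.94% with the block. They were written from general knowledge with earlier results of these data known. Of 17 tested cAMP-CREB target genes, 1 rose (LINC00473) and none fell, and 15 had positive changes (median 0.22, range -0.22 to 1.83; 13 positive with 75th percentile centring and 14 with quantile normalization). With the block 5 rose, adding NR4A3, PDE4D, BDNF and PPARGC1A. BDNF, a neurotrophin, changed by 1.04 ± 0.38 (block adjusted p = 8.08e-06). PPARGC1A, a coactivator of metabolic genes, changed by 1.07 ± 1.64 (block adjusted p = 0.000381), the SE being that without the block. RGS2, which limits Gq signalling, gave 2.09 at 1 h and 2.15 at 2 h, and DUSP1, a MAP kinase phosphatase, 0.70 and 0.61. Of 30 genes of cAMP breakdown and receptor regulation none rose or fell, with 24 positive (median 0.11; 16 positive with 75th percentile centring). With the block PDE4D, ADCY9, an adenylyl cyclase (0.34 ± 0.18, not called with the block under either scaling), and AKAP12, an anchor of protein kinase A (0.45 ± 0.18), rose.

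CRISPLD2 was the called member among 21 anti-inflammatory and bronchoprotective effector genes (14 positive, median 0.07) and among 18 glucocorticoid-inducible genes (13 positive, median 0.15), against 58.1% positive over all tested genes. The block added CD200, a surface protein that restrains myeloid cells (1.06 ± 0.37, block adjusted p = 3.7e-06), to the first list. It added PDK4, a kinase that restrains pyruvate oxidation (1.10 ± 1.75), and ZBTB16, a zinc finger repressor (0.50 ± 0.60), to the second. Both SEs are those without the block. FKBP5, a glucocorticoid-induced chaperone, gave -0.08 and -0.03. With 75th percentile centring the medians of these lists were -0.02 and 0.07, and 10 and 9 members were positive. Of 12 inflammatory genes, IL15 rose, 7 had negative changes and the median was -0.20. With the block CCL2, a monocyte chemokine, rose too (0.70 ± 0.40, block adjusted p = 0.0416, but 0.0694 with 75th percentile centring and 0.0815 with quantile normalization).

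Of 21 immediate early genes none rose or fell, 12 were negative and the median was -0.13. With the block FOSL2, an AP-1 subunit, rose (0.54 ± 0.15, block adjusted p = 0.0245, and 0.0588 with 75th percentile centring) and EGR1 fell. Of 20 MAP kinase feedback inhibitors none passed with or without the block. In 9 glucose-responsive genes the block gave a fall in TXNIP and rises in PFKFB3, which promotes glycolysis (0.46 ± 0.19), and SLC2A3, a glucose transporter (0.82 ± 0.35). Under either scaling PFKFB3 was not called with the block, and ARRDC4, a relative of TXNIP, was called as a fall (-0.41). No other response list had more than 1 called member in either direction with the block, apart from the mitosis list.

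Several genes beyond these lists changed over 2-fold with the block alone and were chosen for mention after their values were seen. CPEB4, which regulates mRNA translation, changed by 1.15 ± 0.29 (adjusted p = 0.0957, block 4.65e-06), and CASP9, an initiator caspase, by 1.12 ± 0.28 (0.095, block 0.00438). Other probe sets of CPEB4 gave 1.25, 1.37 and, in the brightest of them, -0.06. At 2 h CPEB4 gave 775 to 1130 with vehicle, 2190 to 4120 with Ind/GSK and 2680 to 4250 with GS-5759, with no overlap. HRK, a BCL2 family member that promotes apoptosis, changed by 1.21 ± 0.52 and LPL, lipoprotein lipase, by 1.38 ± 0.68. MN1, a transcriptional coregulator, changed by 1.57 ± 1.25 with GS-5759 arrays at 2 h anywhere from 210 to 2310. With the block the SE was 0.20 for HRK, 0.20 for LPL and 0.22 for MN1. Replicates spread widely for these 3 genes: the vehicle arrays at 1 h ran from 266 to 736 for LPL, from 82.8 to 370 for HRK and from 57.2 to 482 for MN1.

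In the fit of all arrays with the settings given above, no fall passed without the block and 64 did with it, here divided by the sign of the response at 1 h. In 16 the response at 1 h was below 0 (median -0.20) and that at 2 h lower (median -0.69), and in 14 of the 16 all 8 treated arrays at 2 h lay below all 4 vehicle arrays (2.71% of tested genes). EGR1, an immediate early zinc finger factor, had a signal at 1 h of 4270, 5010, 4890 and 4770 with vehicle, 2480, 3170, 3440 and 2890 with Ind/GSK and 2850, 3750, 4000 and 2760 with GS-5759. At 2 h it was 2000, 1700, 1490 and 1470 with vehicle, 802, 542, 532 and 363 with Ind/GSK and 922, 596, 697 and 360 with GS-5759. All groups were lower at 2 h, and treated arrays were below vehicle at both times. Vehicle fell by 1.51 ± 0.19 (adjusted p = 1.02e-05) and the response went from -0.59 ± 0.17 (adjusted p = 0.0815, block 0.0101) to -1.50 ± 0.17, a change of -0.91 ± 0.24 (adjusted p = 0.111, block 0.00872). That call was lost in the block fits of 24 arrays and without the arrays numbered 3. A probe set of almost equal brightness gave -0.92 and a dimmer one 0.23.

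TXNIP, which binds thioredoxin and restrains glucose uptake, had means at 1 h of 6090 ± 1480 with vehicle, 3820 ± 1180 with Ind/GSK and 4050 ± 1420 with GS-5759. At 2 h these were 3400 ± 373, 1250 ± 313 and 1230 ± 297. The response went from -0.65 (adjusted p = 0.0921, block 8.71e-05) to -1.47, a change of -0.82 ± 0.27 (adjusted p = 0.308, block 0.000956), and the other 2 probe sets gave -0.80 and -0.72. Mitotic genes stood among the 16 as well. BORA, an activator of Aurora A, went from -0.32 (adjusted p = 0.174, block 0.0371) to -0.92 (change -0.60 ± 0.15, adjusted p = 0.092, block 0.00756). CCNF, cyclin F, changed by -0.56 ± 0.19 (block adjusted p = 0.0173) and HJURP, which loads centromeric histone CENPA, by -0.45 ± 0.16 (block 0.0215). FAM83D and CDCA2, both with roles in mitosis, gave -0.52 and -0.41. Of the 30 tested G2/M and mitosis genes none was called without the block. With it these 3 list members fell, and 27 of the 30 changes were negative (median -0.14), against 6043 of all 14409. Under quantile normalization and 75th percentile centring 29 of the 30 were negative, against 57.2% and 66.6% of all tested genes. All 16 genes passed with the block under both scalings.

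In the other 48 the response at 1 h was above 0 (median 0.21) and at 2 h below it in each (median -0.20). CALCRL, a receptor for calcitonin gene-related peptide, had vehicle signals of 67.8, 55.5, 71 and 63.4 at 1 h and 154, 149, 103 and 179 at 2 h. With Ind/GSK they were 210, 96.3, 105 and 113 at 1 h and 172, 86.1, 91.5 and 90.6 at 2 h, and with GS-5759 124, 102, 151 and 100, then 92.8, 110, 137 and 132. Vehicle was the group that differed between the times (0.99 ± 0.22, adjusted p = 0.0147), and the change was -1.11 ± 0.26 (adjusted p = 0.0705, block 0.0107). UCA1, a long non-coding RNA, had vehicle means of 262 ± 41.5 and 486 ± 155, and treated means from 361 to 400 in all 4 treated groups (change -0.74 ± 0.18).

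Vehicle was higher at 2 h than at 1 h in 47 of these 48 genes (median 0.37). They were dim, with a median level of 7.51 on the log2 scale against 9.45 over all tested genes and 9.58 in the 16. The median deviation over the 48 was -0.29, -0.33, -0.18 and -0.05 in vehicle replicates 1 to 4 at 1 h and 0.34, 0.23, 0.12 and 0.05 at 2 h. The arrays' 75th percentile of signal had a mean of 596 ± 13.3 in vehicle at 1 h, 556.7 ± 23.7 in vehicle at 2 h and 547.3 to 590.3 in the treated groups. Beyond the fits with 75th percentile centring, its part in the result was not tested. With that centring and the block all 64 falls were called. Under both scalings 39 of the 48 passed with the block.

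**Figure D4:**
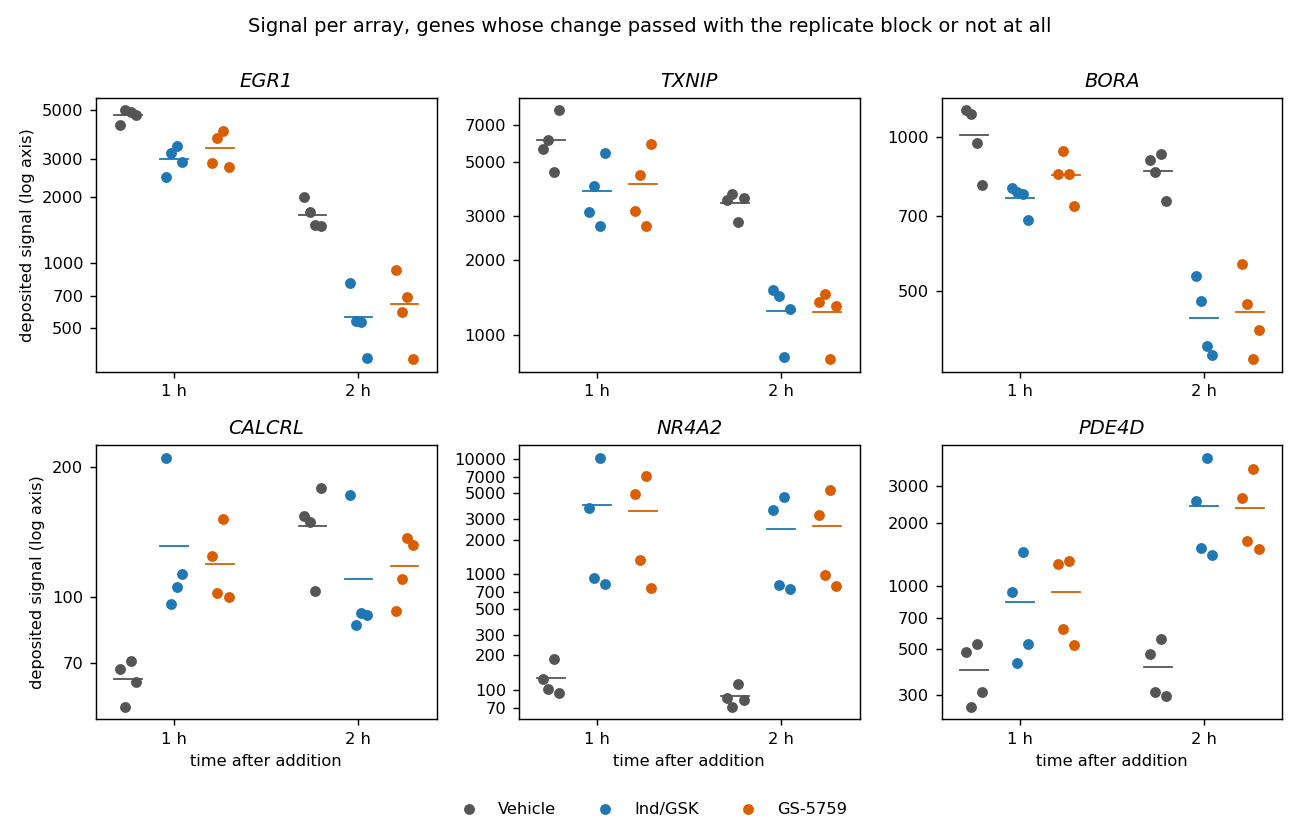
Deposited signal on each array (points, log axis) and group mean (line) at 1 h and 2 h for 6 genes whose change was not called without the replicate block, n = 4 per group, with vehicle in grey, Ind/GSK in blue and GS-5759 in orange. EGR1, TXNIP and BORA fall furthest below vehicle at 2 h, vehicle alone moves for CALCRL (64.4 to 146 on average), NR4A2 is high at both times, and PDE4D rises between them with a wide spread between replicates.

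The 6 h and 18 h arrays entered the test of the change only through the shared estimate of spread. Of the 19 genes, 15 had risen at 6 h (1.69% of tested genes), and 16 with the block (6.98%), and in 11 all treated arrays lay above all vehicle arrays (1.61%). Their median response was 0.56 at 6 h and 0.06 at 18 h. CRISPLD2 kept a response of 3.05 ± 0.34 at 6 h, SLC7A2 reached 1.96 ± 0.15, and LINC00473 gave 2.26 ± 0.26. NPC1 gave 0.75 and SMAD2 0.47, close to their values of 0.72 and 0.45 at 2 h. BCAR3 (0.19), RIMKLB (0.17) and FIGN (0.01) had no called response at 6 h in either fit, and HIVEP2 (0.23) was called with the block alone (adjusted p = 0.119, block 0.0368). At 18 h 0 of the 19 was called (0.0278%), with 4 at an unadjusted p under 0.05 by limma. With the block (0.569%) CRISPLD2 (0.70, adjusted p = 0.00401) and LINC00473 (0.64, 0.0286) were called there.

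**Figure D5:**
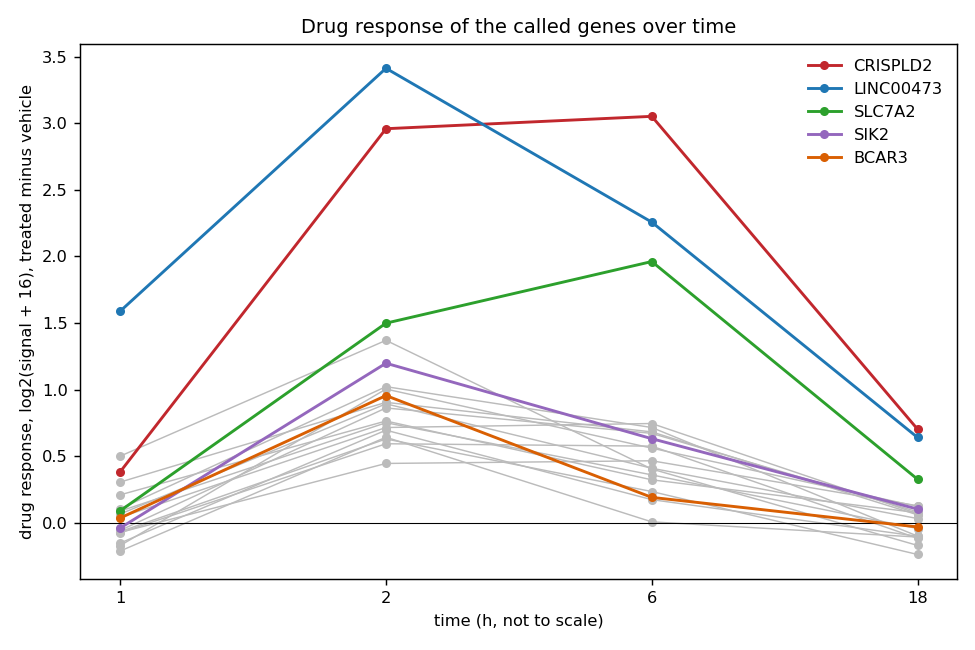
Drug response (mean of both treatments minus vehicle, log2(signal + 16)) of the 19 called genes at 1, 2, 6 and 18 h, with 5 genes coloured and the others in grey. The median goes from 0.04 to 0.89, 0.56 and 0.06, CRISPLD2 and SLC7A2 are as high or higher at 6 h as at 2 h, and BCAR3 is back near 0 at 6 h.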

How the data were processed

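BEAS-2B gene expression was measured on Affymetrix U133 Plus 2.0 arrays, 1 per sample. The authors deposited 1 linear intensity for each probe set. The submitters' processing notes name PLIER and Affymetrix Expression Console. Their versions and the normalization between arrays are not given in the sources used here. The number of arrays limits the precision.

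Of 54675 probe sets, 62 were controls, 41091 had 1 gene symbol, 1801 several and 11721 none; 41037 were matched to current symbols. The brightest probe set with 1 symbol stood for each of 19775 genes. Genes at or below the 40th percentile of mean log2 level (6.514, or 75.42 as a signal) were left out and 14409 tested. Group means over all 48 arrays were fitted to log2(value + 16) with limma 3.58.1 in R 4.3.3 (lmFit, eBayes, 36 residual degrees of freedom), with Benjamini-Hochberg adjustment within each contrast at 0.05.

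Replicate numbers came from the titles. After removal of group means, all 60 same-number pairs of the 24 arrays correlated over genes above 0.1 (0.201 to 0.935), so the numbers were taken to pair the arrays, and a fit with number as a block is given beside the results. Other pairs ran from -0.835 to 0.743.

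The genes named were the largest called changes, up to 3 called members of each list, the 6 largest responses at 1 h and at 2 h, and NR4A and PDE4 genes. Promoters of named genes that hold the full element were to be printed; those of 3 more called genes with the short form were added after the matches were seen. The comparison and the lists were chosen with earlier results of these data known. Alternatives were scaling, pseudocount, filter, probe set choice, arrays fitted, variance trend, replicate block and leaving out each array. The fit without the block was also run on simulated data with independent noise in each array. These held no shared deviation by replicate number, so that run cannot speak to the pairing seen here.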

Additional observations from a re-analysis of the deposited data

Results flagged for a closer look

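Signals of the 19 called genes were examined within each of the 6 groups for an array far from the other 3. Of 114 groups, 8 had a gap to the nearest array that passed Dixon's 95% limit for its share of the group's range, where chance gives about 1 in 20. CRISPLD2 in GS-5759 replicate 1 at 2 h was high, at 3340 against 1840 to 2030 (0.837 of the range). IL15 in GS-5759 replicate 3 at 1 h was low, at 506 against 662 to 696 (0.845). TBX3 in vehicle replicate 2 at 1 h was high, at 242 against 191 to 196 (0.905). AFAP1 in GS-5759 replicate 4 at 2 h was low, at 2390 against 2620 to 2640 (0.927). FRAT1 in Ind/GSK replicate 3 at 2 h was high, at 440 against 333 to 344 (0.885). SLC22A5 in vehicle replicate 3 at 1 h was low, at 1500 against 1810 to 1870 (0.864). CHSY1 in vehicle replicate 1 at 1 h was high, at 2800 against 2360 to 2410 (0.878), and in Ind/GSK replicate 2 at 1 h low, at 2340 against 2880 to 2990 (0.849). No cause was tested.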

How the results depend on the processing

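All 19 called genes kept a positive change under every alternative run. The size fell by over 1.5 times only with the mean of probe sets, in CRISPLD2 (1.24), SLC7A2 (0.66), SIK2 (0.69), ZNF462 (0.78), TBX3 (0.33), HIVEP2 (0.42) and NPC1 (0.36). Genes that rose numbered 29 with a filter at the 60th percentile and 50 without the arrays numbered 3. With the replicate block they were 279 (171 with 75th percentile centring, 196 with quantile normalization, 297 in 24 arrays, 265 without number 3). Genes that fell were 10 with 75th percentile centring, 7 with quantile normalization, 1 with a pseudocount of 64, 2 with the 60th percentile filter and 8 without number 3, and with the block 64 (186, 139, 35 and 49 in the same order). Leaving out 1 array gave 13 to 30 rises, 0 to 26 falls, 7 to 29 calls for Ind/GSK, 2 to 8 for GS-5759, 50 to 156 for the response at 1 h and 8 to 662 for vehicle at 2 h against 1 h (370 in the fit of all arrays).

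For GS-5759 the count of 8 became 3 with 75th percentile centring, no filter or a pseudocount of 1, 2 with the mean of probe sets and 115 with the block, and for Ind/GSK 267 with the block. Fitting 24 arrays gave 76 genes at 1 h and 91 for vehicle 2 h minus 1 h, which scaling moved to 580 (75th percentile) and 189 (quantile). With the block the responses had 959 genes at 1 h, 2024 at 2 h, 2644 at 6 h and 223 at 18 h, and vehicle 2259. The 60th percentile filter left 5 at 18 h. The change of NR4A2 turned to -0.01 (75th percentile, with or without the block), -0.04 (pseudocount 64) and ranged from -0.21 to 0.43 without 1 array, and PDE4A turned to -0.08 with the mean of probe sets. Causes were not tested. Signals near the filter level limit what can be read from dim genes.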
